A study of Mus musculus with 8 samples.

Results

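Fibronectin and 9 secreted glycoproteins of the matricellular kind were followed in cultured mouse KCs, the epithelial cells of the epidermis. The members were the 10 genes Fn1, Tnc, Thbs1, Thbs2, Sparc, Spp1, Postn, Fbln1, Tgfbi and Efemp1, found by name among the 41457 genes of each deposited table, and all 10 had enough reads to enter the test across genes. They were picked on the change of their transcripts between 1 and 3 weeks of culture, so their fold changes are given as a description and without p-values. Poly(A) RNA was sequenced from 4 samples after 1 week and from 4 samples after 3 weeks. All samples were untreated Wildtype KCs of the strain C57BL/6 (C57BL/6J in the study's text), prepared from tail skin of adult animals, plated on pre-coated dishes, grown in a serum-free medium of low calcium content and split when nearly confluent. The cells came from the epidermis after its separation from the dermis by dispase. The series describes 4 independent experiments, and the file names give each sample of a time its own preparation number. The labels do not tie a sample to an animal, so that the spread between samples may be partly technical.

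Fibronectin is a large glycoprotein that cells assemble into fibrils through integrins. Matricellular proteins sit in the same matrix but act mainly by modulating how cells attach, spread and respond to growth factors. In resting epidermis KCs lie on a basement membrane, and they are known to make fibronectin, tenascin and thrombospondin when they leave it, as in wound closure and in culture.

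The samples had between 13896807 and 20026084 reads on exons. Levels are given as RPKM, the reads on the exons of a gene scaled to its exon length and to the depth of the library, and changes as log2 fold changes of 3 weeks over 1 week ± standard error from edgeR, which corrects for library composition. A gene counted as past the threshold at a Benjamini-Hochberg adjusted p-value under 0.05 over the 12590 genes tested. The KC identity was seen in Krt5 and Krt14, the keratins of basal KCs, which lay between 1938 and 7628 RPKM in all samples. The median log2 fold change over all tested genes was 0.03, and -0.16 where RPKM values with a pseudocount of 0.1 were used without that correction. Differences in the share of cells that make a transcript and in the amount per cell cannot be told apart in such bulk samples.

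Of the 10 genes, 6 were higher after 3 weeks (Fn1, Tnc, Thbs1, Sparc, Spp1 and Postn), 2 were lower (Fbln1 and Tgfbi), and 2 did not pass the threshold (Thbs2 and Efemp1). Over all genes tested, 15.7% were called higher and 17.0% lower. Higher genes were 48.0% of those called, and 29.8% of those called in limma on the uncorrected RPKM values. The median log2 fold change of the 10 genes was 1.70. Since the genes were chosen on this contrast, nothing is read from these counts. Summed over the 10 genes, they took between 0.146% and 0.270% of all exon reads at 1 week and between 0.407% and 2.10% at 3 weeks.

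Fn1 encodes fibronectin and lies on the minus strand of chromosome 1 (GRCm38, chr1:71585520-71653200). At 1 week its RPKM values were 11.9, 14.1, 28.5 and 11.01 in replicates 1 to 4. At 3 weeks they were 929.5, 314, 101 and 294. The groups did not overlap, and the lowest 3-week sample was over the highest 1-week sample. Replicate 1 at 3 weeks stood far over the other 3 cultures of its group. In that sample Fn1 alone took 1.12% of all exon reads and ranked 43rd of all genes by RPKM, while its ranks at 1 week ran from 1769 to 4055. The log2 fold change was 4.78 ± 0.68, and 4.00 ± 0.47 without 3 weeks replicate 1. Against the mean of the 1-week samples, the 4 cultures of 3 weeks were 56.7-, 19.1-, 6.16- and 18.0-fold higher. Of the Fn1 reads 97.6% mapped to a single place. Whether reads were assigned by strand is not given, but the genes annotated on the opposite strand of Fn1, Tnc and Thbs1 (Apol7d, 8030451A03Rik and Gm29233) had at most 7, 32 and 6 reads in any sample.

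Tnc encodes tenascin-C, a large multimeric protein that loosens the hold of cells on fibronectin (chr4:63959785-64047015). Its values at 1 week were 43.7, 82.3, 62.1 and 56.1 RPKM. At 3 weeks they were 251, 137, 42.1 and 229 RPKM. Here the groups overlapped, because 3 weeks replicate 3 lay below all 1-week samples while the other 3 lay above them. The log2 fold change was 1.57 ± 0.45, and 1.85 ± 0.26 without that sample. Tnc was past the threshold in the comparison across genes. It did not pass in limma on RPKM with a pseudocount of 0.1 or 1, or with the replicate number as a block (1.36). Nor did it pass without 1 week replicate 1, 3 or 4 or without 3 weeks replicate 1. With preparation as a block in the 3 preparations found at both times, which leave out 3 weeks replicate 3, it passed (1.98). Only 47.5% of the Tnc reads mapped to a single place, and the unique reads alone gave 1.55.

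Thbs1 and Thbs2 encode thrombospondins, which bind matrix proteins and cell-surface receptors, and of which thrombospondin 1 can activate latent TGF-β. Thbs1 (chr2:118111876-118127133) had 132, 185, 267 and 201 RPKM at 1 week. It reached 1183, 785, 346 and 1461 RPKM at 3 weeks. The groups did not overlap, and replicate 3 was again the lowest of its time. On the log2 scale the fold change was 2.40 ± 0.40. Thbs1 had the highest mean of the 10 genes at both times, and in 3 weeks replicate 4 it ranked 23rd of all genes. Thbs2 (chr17:14665500-14694235) had 0.623, 1.497, 0.865 and 0.785 RPKM at 1 week and 0.835, 0.643, 0.748 and 0.642 RPKM at 3 weeks. These ranges overlapped, with a log2 fold change of -0.22 ± 0.28, and rested on 66 to 216 reads per sample. The mean levels per exon length of these paralogs lay far apart at both times.

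Sparc encodes osteonectin, a collagen-binding protein (chr11:55394500-55423183). It had 12.2, 20.01, 20.2 and 19.3 RPKM at 1 week. At 3 weeks it had 77.4, 65.6, 73.8 and 34.4 RPKM. The groups did not overlap, and here replicate 4 and not replicate 3 was the lowest at 3 weeks. Its log2 fold change was 1.99 ± 0.29. Spp1 encodes osteopontin, an integrin ligand that is also known as a cytokine (chr5:104435118-104441050). It had 2.04, 4.98, 2.49 and 2.48 RPKM at 1 week and 11.9, 14.6, 4.36 and 8.18 RPKM at 3 weeks. The groups overlapped only in that 3 weeks replicate 3 lay below 1 week replicate 2, and the change was 1.84 ± 0.38 on the log2 scale.

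Postn and Tgfbi encode the fasciclin-domain proteins periostin and TGFBI, both known as genes that respond to TGF-β, and they moved in opposite directions. Postn (chr3:54361109-54391037) was near the lower end of detection at 1 week, with 0.410, 0.368, 0.448 and 0.169 RPKM from 26 to 68 reads. At 3 weeks it had 6.39, 2.90, 2.498 and 9.58 RPKM. The groups did not overlap, and the log2 fold change was 4.07 ± 0.49, the largest of the 10 after Fn1. Tgfbi (chr13:56609523-56639562) had 7.19, 6.37, 11.6 and 18.7 RPKM at 1 week and 3.51, 3.10, 2.73 and 2.35 RPKM at 3 weeks. The groups did not overlap. The log2 fold change was -1.74 ± 0.34, and -1.36 ± 0.25 without 1 week replicate 4, the highest sample.

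Fbln1 and Efemp1 encode fibulins, proteins of basement membranes and elastic fibres. Fbln1 (chr15:85205949-85286535) had 6.73, 6.49, 7.61 and 7.35 RPKM at 1 week. It had 2.10, 2.34, 1.20 and 1.92 RPKM at 3 weeks. The groups did not overlap and both were narrow, with a log2 fold change of -1.75 ± 0.18, the smallest standard error among the 10 genes. Efemp1 (chr11:28853204-28926743), which encodes fibulin-3, had 9.67, 12.1, 6.22 and 7.85 RPKM at 1 week. At 3 weeks it had 3.74, 4.84, 3.38 and 40.8 RPKM. In 3 cultures of 3 weeks it lay below all 1-week samples, and in replicate 4 above all of them. The log2 fold change was 0.67 ± 0.76 with all samples, and -0.99 ± 0.24 without 3 weeks replicate 4.

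**Figure D1:**
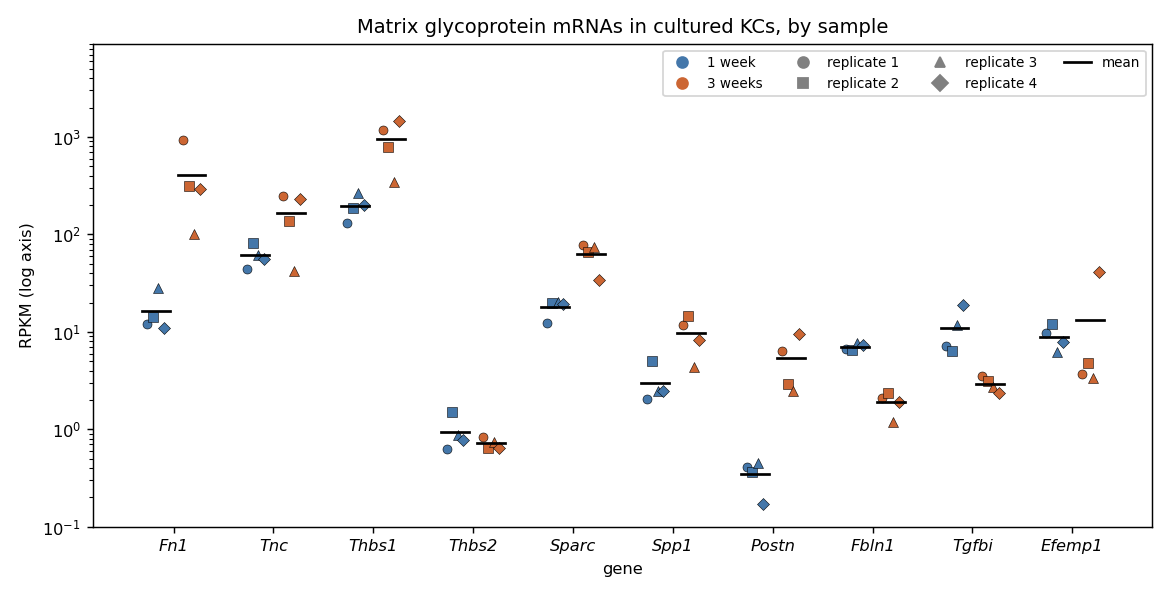
RPKM on a log axis of the 10 genes in each of the 8 samples, with 1 week in blue, 3 weeks in orange, a symbol for each replicate number and a line at the mean of 4. Fn1, Thbs1, Sparc and Postn have no overlap with higher values at 3 weeks, Fbln1 and Tgfbi none with lower values, and the 40.8 RPKM of Efemp1 in replicate 4 stands apart.

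**Figure D2:**
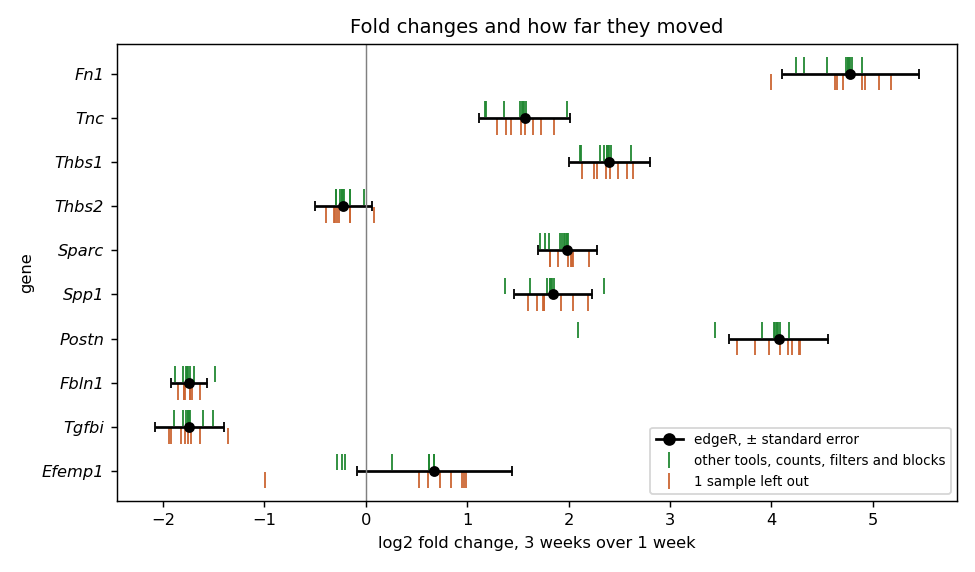
Log2 fold changes of 3 weeks over 1 week with standard errors (black), and the values under other tools, read counts, filters and blocks (green) or with 1 sample left out (orange). Efemp1 spreads from -0.99 to 0.99 and Fn1 from 4.00 to 5.18, while Fbln1 stays between -1.88 and -1.49.

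The order of the levels per exon length differed between the times. At 1 week the means ran from Thbs1 (196 RPKM) and Tnc (61.0 RPKM) over Sparc, Fn1, Tgfbi, Efemp1 and Fbln1 (17.9 to 7.04 RPKM) to Spp1 (3.00 RPKM), Thbs2 (0.943 RPKM) and Postn (0.349 RPKM). The ranges of neighbours among Sparc, Fn1, Tgfbi, Efemp1 and Fbln1 overlapped, and those of all other neighbours did not. At 3 weeks the order was Thbs1 (944 RPKM), Fn1 (409.6 RPKM), Tnc (165 RPKM), Sparc (62.8 RPKM), Efemp1, Spp1, Postn, Tgfbi, Fbln1 and Thbs2. Neighbours overlapped down to Tgfbi, while Tgfbi, Fbln1 and Thbs2 were apart from each other. Fn1 moved from the fourth to the second place, and Postn from the tenth to the seventh.

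The 3-week cultures differed in which matrix genes were high. Replicate 1 was the highest of the 4 for 5 genes (Fn1, Tnc, Thbs2, Sparc and Tgfbi). Replicate 4 was the highest for Thbs1, Postn and Efemp1 and the lowest for Thbs2, Sparc and Tgfbi. Replicate 3 was the lowest for 7 of the 10 genes (Fn1, Tnc, Thbs1, Spp1, Postn, Fbln1 and Efemp1). In replicate 3, transcripts with over 6000 exon bases were also low as a class, with a median log2 deviation of -0.22 from the group mean over 2978 genes, while the 1054 genes with under 2000 exon bases deviated by 0.40. In replicate 4 these medians were 0.16 and -0.31, and in the other 6 samples they stayed between -0.09 and 0.10 for long and between -0.13 and 0.12 for short transcripts. Of the genes lowest in replicate 3, Fn1, Tnc, Thbs1 and Postn have 11685, 7772, 6073 and 8702 exon bases. Spp1, Efemp1 and Fbln1, also lowest there, are shorter, with 1648, 2037 and 4368 exon bases. Thbs2, with 7003 exon bases, was not the lowest in replicate 3. The part of this length effect in the values of replicate 3 was not tested. Reads on introns were 6.60% of the Tnc reads in replicate 3 and between 0.944% and 1.23% in the other 7 samples, and for Fn1 they were 1.04% in replicate 3 and at most 0.585% elsewhere. Without 3 weeks replicate 3 the log2 fold changes were 5.06 ± 0.55 for Fn1, 2.64 ± 0.29 for Thbs1 and -1.64 ± 0.14 for Fbln1.

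**Figure D3:**
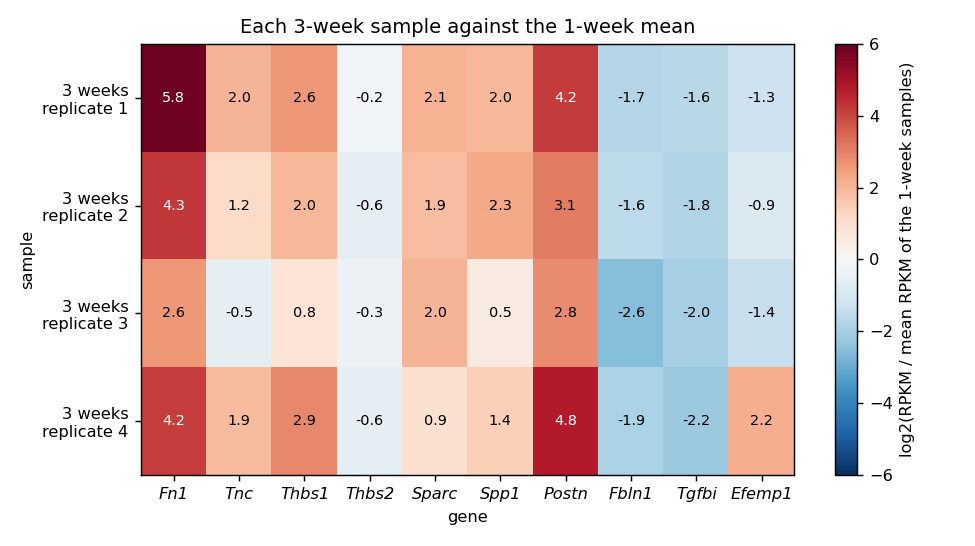
Log2 ratio of the RPKM of each 3-week sample to the mean RPKM of the 1-week samples, for the 10 genes (columns) and the 4 samples (rows), red for higher and blue for lower. Fn1 and Postn are red and Fbln1 and Tgfbi blue in all 4 rows, Tnc is blue only in replicate 3, and Efemp1 is red only in replicate 4.

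The file names carry preparation numbers, and 3 preparations (46, 49 and 90) occur at both times. Fn1 was 78.0-, 10.99- and 26.7-fold higher at 3 weeks within these preparations, and Thbs1 8.94-, 2.94- and 7.28-fold. Tnc was 5.74-, 2.21- and 4.09-fold higher, so that its overlap between the groups came from a sample outside these pairs. The ratio for Fbln1 was 0.312, 0.308 and 0.261, and for Tgfbi 0.489, 0.266 and 0.126. Efemp1 had ratios of 0.387, 0.777 and 5.20, with the rise in preparation 90. These ratios are uncorrected RPKM values of single samples.

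Genes with a pattern like that of Fn1 were sought in the 8742 genes whose mean over the samples reached 10 CPM (reads scaled to library size), by Pearson's r of log2(RPKM + 0.1) over the 8 samples. The 5 most alike were Bmp1 (r = 0.994), AI464131 (0.992), Ttc13 (0.991), Fndc3b (0.990) and Fam219a (0.989). Bmp1 encodes a protease that trims procollagens. The values share libraries and depth, and r is set mostly by the difference between the times. When each sample was taken as its deviation from the mean of its time, Bmp1 remained among the first 5 (r = 0.975), with L3mbtl3 (0.977), Adgra3 (0.971), Sap30bp (0.968) and Ptk2b (0.968). Among the other members the r of these deviations with Fn1 was 0.79 for Tnc, 0.77 for Thbs1, 0.74 for Fbln1, 0.58 for Postn and 0.57 for Spp1, and between -0.05 and 0.19 for Thbs2, Sparc, Tgfbi and Efemp1. By this r, Tnc, Thbs1 and Fbln1 stood at places 463, 587 and 837 of the 8742 genes and Postn and Spp1 at 2135 and 2195, so that many other genes followed Fn1 as closely.

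Sequences upstream of the transcription start are shown for 4 genes, as Postn and Spp1 were higher and Fbln1 and Tgfbi lower after 3 weeks. The RefSeq table of promoter windows (GRCm38.p6, 250 bases before to 50 after a start) held 12 windows for 8 of the 10 genes and none for Fn1 and Thbs1. Printed are the 250 bases before the start on the plus strand, at chr3:54360857-54361106 for Postn, chr5:104434861-104435110 for Spp1, chr15:85205758-85206007 for Fbln1 and chr13:56609336-56609585 for Tgfbi. Capitals mark the motifs found.
Postn: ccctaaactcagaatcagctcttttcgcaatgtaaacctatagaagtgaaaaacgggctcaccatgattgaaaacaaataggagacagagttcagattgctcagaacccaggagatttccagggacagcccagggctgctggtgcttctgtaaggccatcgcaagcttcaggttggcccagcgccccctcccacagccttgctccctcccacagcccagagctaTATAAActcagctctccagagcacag
Spp1: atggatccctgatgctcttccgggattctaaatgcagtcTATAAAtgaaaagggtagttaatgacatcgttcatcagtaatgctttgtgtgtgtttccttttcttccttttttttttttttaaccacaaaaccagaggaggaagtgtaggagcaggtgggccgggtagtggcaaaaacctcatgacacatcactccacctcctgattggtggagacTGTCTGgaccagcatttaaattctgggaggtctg
Fbln1: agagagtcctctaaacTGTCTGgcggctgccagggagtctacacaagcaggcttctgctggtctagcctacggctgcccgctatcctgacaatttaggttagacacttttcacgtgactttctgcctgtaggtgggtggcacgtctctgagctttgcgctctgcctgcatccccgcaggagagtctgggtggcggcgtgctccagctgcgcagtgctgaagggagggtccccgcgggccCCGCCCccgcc
Tgfbi: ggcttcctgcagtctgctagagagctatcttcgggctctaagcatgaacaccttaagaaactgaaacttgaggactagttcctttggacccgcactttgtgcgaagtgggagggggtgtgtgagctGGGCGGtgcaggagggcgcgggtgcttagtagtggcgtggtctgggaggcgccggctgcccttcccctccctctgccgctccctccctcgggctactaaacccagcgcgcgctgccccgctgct
The letters searched on both strands were TATAAA (the letters of a TATA box), GGGCGG (the SP1 motif), CAGACA (a SMAD binding element), TGANTCA (the AP-1 motif) and GGAATG (the TEAD motif). No 2 matches overlapped. The letters TATAAA begin 26 bases before the start in Postn and 211 before it in Spp1, and they are absent from the windows of Fbln1 and Tgfbi. Both of these hold the SP1 motif, 11 bases before the start in Fbln1 and 124 in Tgfbi. These windows have 24 and 22 CpG in 300 bases against 5 in Postn, 3 in Spp1 and a median of 7 over 32851 promoters. Over the 8 genes, 4 hold TATAAA in a window, 4 GGGCGG, 5 CAGACA, 1 TGANTCA (Efemp1) and 0 GGAATG. Of their 12 windows, some of which share bases, 5 hold TATAAA, 5 GGGCGG, 7 CAGACA, 1 TGANTCA and 0 GGAATG. The shares over all promoters are per window as well. Of all promoters 13.6% hold TATAAA, 35.7% GGGCGG, 21.0% CAGACA, 7.81% TGANTCA and 14.7% GGAATG. The windows not printed do not follow the difference between the 4 shown. Tnc, which was higher at 3 weeks, holds GGGCGG and 16 or 10 CpG in its windows, Sparc has no TATAAA, the other window of Postn has no TATAAA, and the other window of Fbln1 has 12 CpG and no GGGCGG. These matches describe letters in a window and say nothing of binding.

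Other genes of the same families, their receptors, the enzymes that cross-link or cut the matrix and the TGF-β pathway were read from lists of known members, and these comparisons were tested (edgeR quasi-likelihood test, adjusted over all genes). Like the members, the lists were chosen with earlier results of these data known, so their adjusted p-values are not independent of that choice. Of 28 family relatives, 17 had too few reads to be tested, among them the other tenascins and Thbs3 and Thbs4. Of the 11 tested, 5 rose, 0 fell and 6 did not pass the threshold, with a median log2 fold change of 0.34. The shares over all genes tested were 15.7% higher and 17.0% lower. Wisp1, Ctgf and Cyr61 encode CCN proteins, which are matricellular as well. Ctgf rose from 106–247 to 564–990.2 RPKM (log2 fold change 2.15 ± 0.29, adjusted p = 0.000872), and 66.0% of its reads were unique. Wisp1 rose from at most 0.463 to at least 1.84 RPKM (3.08 ± 0.34, adjusted p = 0.000435), and Cyr61 by 0.97 ± 0.25 (adjusted p = 0.0165, and 0.0553 without 1 week replicate 1) with overlapping groups. Fbln2, which encodes fibulin-2, rose by 2.02 ± 0.24 (adjusted p = 0.000635), so that it moved against the related Fbln1. Efemp2 also passed the threshold and lay higher at 3 weeks.

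Of 18 receptor genes 15 were tested, 5 rose, 0 fell and 10 did not pass, with a median log2 fold change of 0.47. Among all genes tested, 15.7% were called higher and 17.0% lower. Itga5 and Itgb1 encode the subunits of the main fibronectin receptor, the integrin α5β1. Itga5 had 12.3 to 17.9 RPKM at 1 week and 69.4, 49.4, 17.1 and 33.3 RPKM in replicates 1 to 4 at 3 weeks, so that replicate 1 was the highest and replicate 3 the lowest, as for Fn1. The groups overlapped in replicate 3, and the log2 fold change was 1.74 ± 0.35 (adjusted p = 0.00563). Itgb1 rose by 0.79 ± 0.17 (adjusted p = 0.00698) without overlap between the groups. Itgav, the α subunit of receptors for vitronectin and fibronectin, rose by 1.05 ± 0.21 (adjusted p = 0.00498) with overlapping groups. It had 33.3 RPKM in 3 weeks replicate 3 against 36.2 RPKM in 1 week replicate 3. Itgb8, a partner of αv that is known to bind latent TGF-β, rose by 2.34 ± 0.34 (adjusted p = 0.00129) from at most 0.479 RPKM. The fifth was Sdc4, which encodes the fibronectin-binding proteoglycan syndecan-4. The receptors for thrombospondin 1 and osteopontin Cd47 and Cd44 had log2 fold changes of -0.18 and -0.33 and did not pass the threshold.

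Of 20 enzyme genes 19 were tested, 10 rose, 1 fell and 8 did not pass, with a median of 0.99. The shares over all genes were again 15.7% higher and 17.0% lower. Lox, which encodes lysyl oxidase, had 0.790 to 2.62 RPKM at 1 week and 53.0, 39.0, 38.1 and 230.9 RPKM in replicates 1 to 4 at 3 weeks. The groups lay far apart, and replicate 4 exceeded the other 3 cultures of its time. The log2 fold change was 5.88 ± 0.75 (adjusted p = 0.000723), and 4.88 ± 0.38 without 3 weeks replicate 4. Tgm2, which encodes the transglutaminase that cross-links fibronectin, rose by 3.97 ± 0.50 (adjusted p = 0.000712). Only 29.5% of its reads were unique, and the unique reads gave 3.90. Loxl2 (3.08 ± 0.60, adjusted p = 0.00487) and Adamts4 (2.40 ± 0.39, adjusted p = 0.00209) rose as well, with 65.0% and 78.2% unique reads. The other enzyme genes that rose were Loxl3, Bmp1, Mmp14, Plau, Plat and Htra1, the last with 24.8% unique reads. Mmp3, the stromelysin that cuts fibronectin and osteopontin, fell by 2.12 ± 0.44 on the log2 scale (adjusted p = 0.00621).

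In the TGF-β pathway 16 of 17 genes were tested, 2 rose, 2 fell and 12 did not pass, with a median of -0.15. These counts are near the shares over all genes (15.7% higher, 17.0% lower) and are not read as a result about the pathway. In limma on the uncorrected RPKM values 1 rose and 5 fell. Of the ligands, Tgfb2 rose by 2.37 ± 0.68 (adjusted p = 0.0270), Tgfb3 rose by 1.34 ± 0.30 (adjusted p = 0.00884) and Tgfb1 fell by 0.46 ± 0.14 (adjusted p = 0.0336). Tgfb2 had 1.25, 0.767, 0.904 and 5.96 RPKM in replicates 1 to 4 at 3 weeks, and without replicate 4 its log2 fold change was 1.24 ± 0.36. In the fit of the 6 samples from the 3 preparations that occur at both times, with preparation as a block, none of these 3 ligands passed (adjusted p = 0.0502 for Tgfb2, 0.0622 for Tgfb3 and 0.146 for Tgfb1). Only 50% of the Tgfb3 reads were unique, and these gave 0.98. Ltbp1, which encodes a protein that tethers latent TGF-β to the matrix, fell by 1.31 ± 0.29 (adjusted p = 0.00838). The receptors Tgfbr1, Tgfbr2 and Tgfbr3 and Smad2, Smad3, Smad4 and Smad7 did not pass the threshold. Some of the genes named from these lists (Ctgf, Itgav, Cd44, Tgm2, Loxl2, Loxl3, Adamts4, Htra1, Tgfb2, Tgfb3 and Thbs3) overlap a gene annotated on the opposite strand, so that their reads are less certain.

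**Figure D4:**
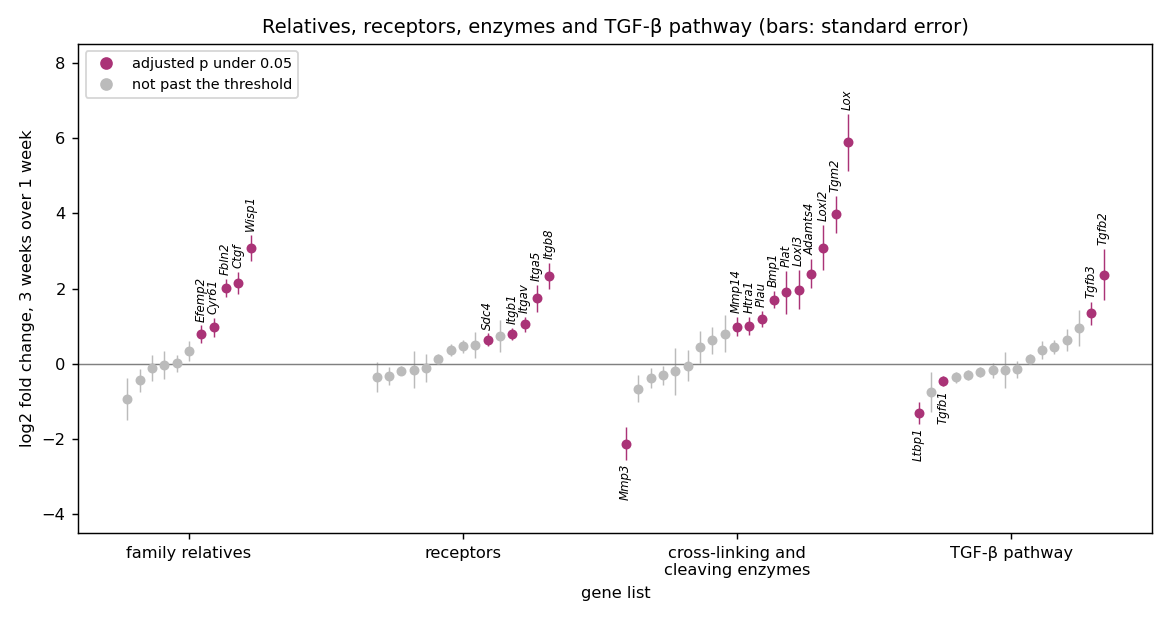
Log2 fold changes of 3 weeks over 1 week with standard errors for the tested genes of 4 lists, purple where the adjusted p-value (edgeR) was under 0.05. Among receptors and family relatives the purple genes lie above 0 only, and Lox (5.88) is the highest and Mmp3 (-2.12) the lowest of the enzymes.

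KCs are not the only skin cells that make these proteins, and markers of other cell types were read beside them. Of 10 fibroblast markers 0 rose and 2 fell (Pdgfrb and Col6a3), and 7 stayed under 1 RPKM in every sample. Beside 15.7% higher and 17.0% lower over all genes, nothing is read from these calls. Their summed level was 4.49 to 8.06 RPKM at 1 week and 3.08 to 6.20 RPKM at 3 weeks, and the highest single value was 3.34 RPKM for Col1a1. The summed ranges of both times overlapped. Among 3-week samples the sum was the highest in replicate 4 (6.20 RPKM, against 3.08 to 4.01 in the others), the sample that stood out for Efemp1, Lox and Tgfb2. Col1a1 (3.34 RPKM) and Thy1 (1.30 RPKM) carried that sum. Col1a2 (0.367 RPKM) and Pdgfrb (0.186 RPKM) were also at their highest of the 3-week samples in replicate 4. Dcn, Col3a1 and Twist2 were at their lowest there, and Lum, Pdgfra and Col6a3 lay in between. The part of fibroblasts in the values of that sample, and in those of the matrix genes at both times, was not tested.

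Of 6 muscle and pericyte markers, Acta2 rose from 138–364 to 1112–2690 RPKM (3.15 ± 0.37, adjusted p = 0.000585) and Tagln by 2.53 ± 0.43 (adjusted p = 0.00255, with 32.6% unique reads), while Cspg4 fell. Des, Rgs5 and Cspg4 were below 1 RPKM in all samples. Myh11, which was not tested, had a mean of 0.029 RPKM at 1 week and 0.778 RPKM at 3 weeks. Its groups overlapped, and it reached at most 1.496 RPKM. The summed level of the list, mostly Acta2 and Tagln, was 173 to 445 RPKM at 1 week and 1252 to 3173 RPKM at 3 weeks. Within 3 weeks it was the highest in replicate 1 and the lowest in replicate 4. The part of muscle cells and pericytes in the values of the matrix genes was not tested. Endothelial markers summed to at most 4.54 RPKM, leukocyte markers to at most 20.3 RPKM, mostly Cd68, and melanocyte and Schwann markers to at most 11.6 RPKM, and none of the 8 markers tested in these lists rose. Nothing is read from this, as 15.7% of all genes were called higher. The other 11 markers of these lists had too few reads to be tested and stayed below 1 RPKM. The KC markers summed to 14345–17157 RPKM at 1 week and 9619–10757 RPKM at 3 weeks, where Krt5 and Itga6 fell.

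**Figure D5:**
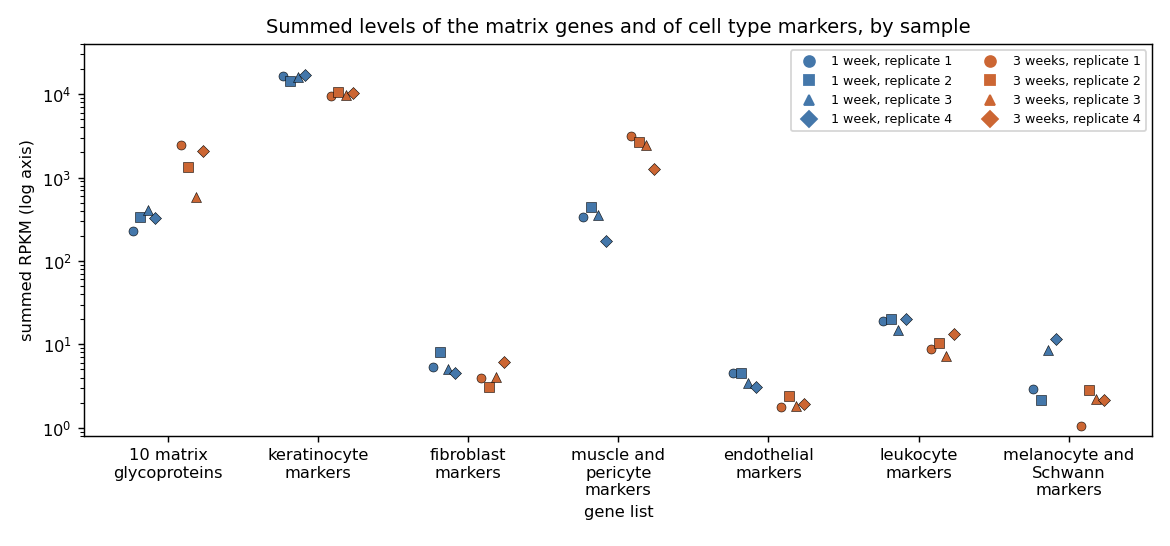
Summed RPKM on a log axis of the 10 matrix genes and of 6 marker lists in each sample, with 1 week in blue and 3 weeks in orange. The matrix sum rises from 227–407 to 578–2469 RPKM and the muscle and pericyte sum, mostly Acta2 and Tagln, rises as well. The fibroblast sum lies at or below 8.06 RPKM at both times.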

How the data were processed

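Poly(A) RNA of KCs was measured in 8 samples, and the time of culture and the replicate number of each were read from the deposited labels. The authors aligned trimmed reads to GRCm38 in the CLC Genomics Workbench and deposited raw counts for each gene (exon reads in all, uniquely mapped exon reads, whole-gene reads and intron reads). RPKM values, also deposited, were the exon reads scaled to exon length and to mapped reads of the sample. Strand use and annotation release are not given in the sources used here. Of the exon reads, between 81.6% and 84.7% per sample were unique.

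The exon reads entered edgeR 4.0.16 (filterByExpr, TMM, glmQLFit and glmQLFTest, Benjamini-Hochberg) in R 4.3.3 over 12590 genes, without pairing. On simulated counts for this comparison, 200 of 12590 genes were changed. Of these, 80 of 100 genes changed 4-fold and 30 of 100 changed 2-fold were recovered, with 2 false calls. In the data 4127 genes were called, far more than the simulation changed, so these rates do not carry over to the data. The members and the lists were chosen with earlier results of these data known. Named from the related lists were at most 4 genes with the largest change in each direction, past the threshold and with a mean of at least 1 CPM. The others past the threshold, and genes such as Cd44, Cd47 and Smad3 that were not, were named without that rule. Alternatives were DESeq2 1.42.0, upper-quartile normalization, other filters, unique or gene reads, limma 3.58.1 on log2(RPKM + 0.1) or log2(RPKM + 1), blocks and the omission of each sample. A gene of the TGF-β pathway list is not reported here and was left out of its counts. Promoter windows were from RefSeq on GRCm38.p6. Tables and plots were made with Python 3.11.15 and matplotlib 3.10.9.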

Additional observations from a re-analysis of the deposited data

Results flagged for a closer look

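Of 54 groups of 4 samples (the 10 matrix genes and 17 genes named from the related lists, at both times), 7 held a sample far from the other 3 by Dixon's criterion, which chance meets in about 1 of 20 groups. Among the matrix genes these were Efemp1 in 3 weeks replicate 4 (40.8 RPKM against 3.38 to 4.84), Sparc in 1 week replicate 1 (12.2 RPKM against 19.3 to 20.2) and Spp1 in 1 week replicate 2 (4.98 RPKM against 2.04 to 2.49). In 3 weeks replicate 4, Lox (230.9 RPKM against 38.1 to 53.0) and Tgfb2 (5.96 RPKM against 0.767 to 1.25) stood apart as well. At 1 week the same was seen for Itga5 in replicate 2 (17.9 RPKM against 12.3 to 13.2) and Tgfb1 in replicate 1 (12.1 RPKM against 14 to 14.2). Their causes were not tested.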

How the results depend on the processing

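The number of matrix genes past the threshold was 8, and 7 to 9 over the alternatives, where Tnc was lost or Efemp1 added. Efemp1 changed sign, to -0.29 and -0.20 in limma on log2(RPKM + 0.1) and log2(RPKM + 1), to -0.24 with the replicate block and to -0.99 without 3 weeks replicate 4. When each sample was left out, Efemp1 ran from -0.99 to 0.99 and Thbs2 from -0.40 to 0.082, the latter without 1 week replicate 2. Without 1 sample each, 3015 to 4861 genes (4127 with all), 3 to 6 family relatives (5), 4 to 7 receptors (5), 9 to 12 enzymes (11) and 2 to 6 genes of the TGF-β pathway (4) passed. The count of family relatives was 3 without 1 week replicate 1, and that of the TGF-β pathway 2 without 1 week replicate 1, 3 or 4.

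The replicate numbers follow the preparation numbers only in part. Replicates 1 and 4 were of the same preparation at both times, and replicates 2 and 3 were not. The deviations of same-numbered samples had correlations of -0.23, -0.15, -0.15 and 0.25. Samples of the same preparation had -0.23, 0.20 and 0.25, so that these correlations alone cannot decide whether samples are paired. The study's text describes the cultures of both times as coming from the same KC batches. In the file names, 6 of the 8 samples carry a preparation number found at both times. The main fit did not use this pairing. With the replicate block 2867 genes and 2 genes of the TGF-β pathway passed, and with the 3 preparations as a block 3109 and 1. Of the genes called, 48.0% were higher at 3 weeks, but 29.8% and 29.3% in limma on RPKM, which lacks the correction for composition. The cause of the lost calls was not tested. DESeq2 gave no adjusted p-value for Efemp1 and Lox. Changes of 2-fold were often missed in the simulated counts, where fewer genes changed than were called in the data. The reads of Thbs2 at both times and of Postn and Spp1 at 1 week were few.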
